A study of Homo sapiens with 3 samples.

Results

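Expression of 43 genes encoding protein phosphatase 2A (PP2A), the related phosphatases of the PPP family and their regulators was examined in PANC-1 cells. The members were taken from a list of PPP subunits and regulators that includes the targets of cantharidin and okadaic acid, and every probe whose RefSeq transcript belongs to a listed gene was used. All 43 genes had at least 1 probe, out of 19699 genes on the array that could be named, and 61 probes represented them. PANC-1 is an established human pancreatic ductal carcinoma line. Total RNA from control cells, from cells given 20 µM cantharidin and from cells given okadaic acid was labelled with Cy3 and hybridised to an Agilent oligonucleotide array, with 1 array per group and 3 arrays in all. Treatment lasted 24 h. The sample labels give 20 µM for okadaic acid too, whereas the wording of the treatment protocol attaches this dose to cantharidin and does not settle that of okadaic acid. The labels name no vehicle for the control. The study used both agents because cantharidin, like okadaic acid, inhibits PP2A, and asked which genes the 2 agents alter alike.

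PPP phosphatases remove phosphate groups from serine and threonine. Each has a small catalytic subunit that gains its substrates by binding other proteins. In PP2A a catalytic and a scaffold subunit form a core, to which 1 of several families of regulatory subunits (B55, PR72, B56 or striatin) is added. Methylation of the end of the catalytic subunit and a set of chaperones govern the assembly, and small proteins such as SET inhibit the enzyme. PP1, calcineurin, PP4, PP5 and PP6 are built from related catalytic subunits. Cantharidin and okadaic acid bind at or near the active site of several of these enzymes. Transcript level is a separate quantity from enzyme activity, which arrays do not measure.

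Each value below is the processed intensity of a spot, which is a measure of brightness without units and can be compared for the same probe between arrays but not between probes. Arrays were first scaled to their 75th percentiles, which were intensities of 784 for control, 713 for cantharidin and 936 in okadaic acid cells, and folds are ratios of scaled values. A gene was represented by its brightest probe and was called higher or lower at 1.5-fold, the threshold of the study's own comparison. With 1 array per group there is no test and no error between samples. Between spots of the same probe, the SD of a log2 difference was 0.19 for cantharidin against control and 0.16 for okadaic acid against control, which covers only the noise within an array. In the labelled cell line, KRT7, KRT8, KRT18, KRT19, EPCAM, VIM and SOX9, or 7 of 8 marker genes, were well above background on all 3 arrays, whereas CDH1 was well above background in control only. Of 11 markers of leukocytes, endothelium, fibroblasts, acinar cells and islets, 8 were also well above background on all 3 arrays, and their part in the results was not tested. In total RNA from a culture, fewer cells of a kind and less RNA per cell cannot be told apart.

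Of the 43 members, 41 were well above background on every array. STRN3, a striatin, and CIP2A, an inhibitor of PP2A, failed to rise well above background anywhere and were not compared. Under cantharidin 17 of the 41 members were at least 1.5-fold higher than control, against 27.5% of all genes compared, and 10 were at least 1.5-fold lower, against 34.1% of all genes. Under okadaic acid 17 were higher, against 28.1% of all genes, and 13 were lower, against 28.8%. This split depended on the scaling, with 21 higher and 8 lower without any scaling, and 13 higher and 14 lower after scaling to the median. All genes shifted too, to okadaic acid medians of 0.26 without scaling and -0.11 after scaling to the median. Their shares were not counted under these scalings. The median log2 difference of the members from control was 0.44 under cantharidin, beside -0.16 for all genes, and 0.38 under okadaic acid, beside 0.01 for all genes. With the median over the probes of each gene in place of the brightest probe, the okadaic acid median was -0.04. The 2 comparisons share the control array. Altogether 34 of the 41 members were past 1.5-fold under at least 1 agent. The other 7 stayed within 1.5-fold under both, against 24.3% of all genes. As patterns over both agents, 12 members were higher under both, against 17.3% of all genes, and 8 were lower under both, against 21.1%. A further 3 members passed 1.5-fold in opposite directions, against 3.62% of all genes.

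**Figure D1:**
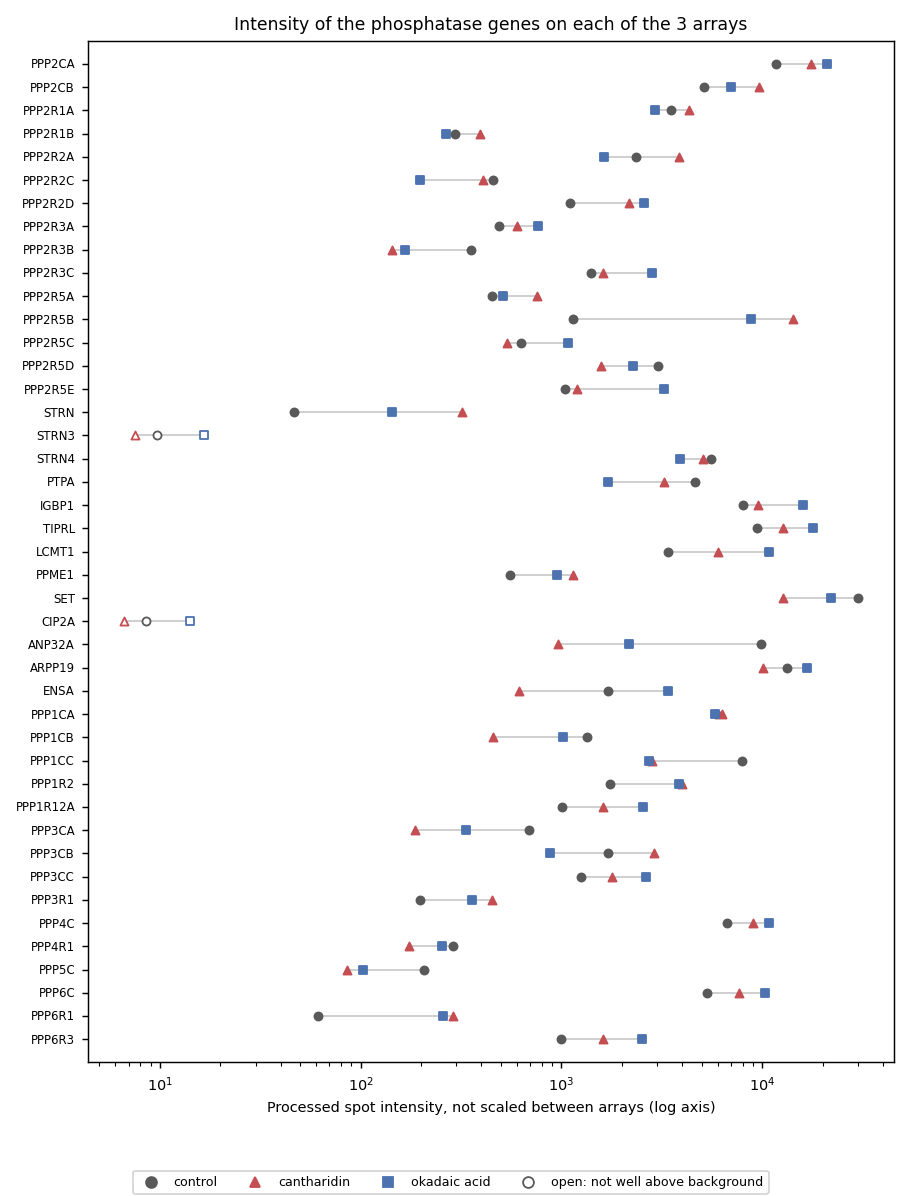
Processed intensity of the brightest probe of each of the 43 members (log axis, not scaled between arrays) for control (circles), cantharidin (triangles) and okadaic acid (squares), with open symbols where the probe was not well above background. PPP2R5B runs from 1137 in control to 14245 under cantharidin, ANP32A runs from 9830.3 down to 959, and STRN3 and CIP2A are open on all 3 arrays.

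Both catalytic subunits of PP2A were higher under cantharidin. PPP2CA, the major catalytic isoform, was printed in 10 spots and had a mean intensity of 11732 in control, 17566 under cantharidin and 21128 under okadaic acid. This was 1.65-fold higher with cantharidin and 1.51-fold higher with okadaic acid. Its spots ranged from 11391 to 12038 in control (9 spots), from 15927 to 19771 under cantharidin (10 spots) and from 20100.2 to 21867 with okadaic acid (7 spots), so the spots of either agent lay above all control spots. After scaling, the spots of the agents overlapped each other, at log2 values of 4.48 to 4.79 for cantharidin and 4.42 to 4.55 for okadaic acid. Both folds of PPP2CA lie near the threshold, and without scaling between arrays the log2 difference under cantharidin was 0.58. PPP2CB, the second catalytic isoform, had intensities of 5118 in control, 9678 under cantharidin and 7032 under okadaic acid. It was 2.08-fold higher with cantharidin and 1.15-fold higher with okadaic acid, and thus within 1.5-fold for the latter. The isoforms are similar in sequence, and binding of either transcript to the probe of the other was not tested.

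The promoter of PPP2CA is shown because it holds the least common of the motifs searched, together with 2 matches to the most common one. In lower case with matches in capitals, these are the 250 bases before its outermost RefSeq start (GRCh38.p14, chr5:134226074-134226323, minus strand, written 5′ to 3′ along the gene):
PPP2CA promoter: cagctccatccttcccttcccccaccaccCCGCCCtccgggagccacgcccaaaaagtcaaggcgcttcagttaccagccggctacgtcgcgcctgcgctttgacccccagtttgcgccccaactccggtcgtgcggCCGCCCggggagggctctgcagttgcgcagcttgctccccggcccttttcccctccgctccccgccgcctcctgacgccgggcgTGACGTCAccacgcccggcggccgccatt
In this stretch CCGCCC is the GC box (GGGCGG) read on the opposite strand, and TGACGTCA is the cyclic AMP response element. Both strands of such windows were searched for 5 motifs, and 35 of the 43 members had a window in the table. The GC box was found in 27 of the 35 members (77.1%), against 42.2% of 27305 promoters of the same length. The cyclic AMP response element was found in 3 members, PPP2CA, PPP2R2D and TIPRL (8.57%), against 1.75% of all promoters. The CCAAT box (CCAAT) was found in 14 members of the 35, against 33.0% of all promoters. No member window held the letters TGATGNAA, the CHOP-ATF4 element, or TGANTCA, the AP-1 site, which occurred in 3.19% and 6.57% of all promoters. Among members higher under both agents, 10 of 11 windows held a GC box and 4 a CCAAT box. Among members lower under both agents, 4 of 6 held a GC box and 4 a CCAAT box. The 27305 promoters were not matched to the members by base composition or kind of gene, so the shares do not single out the members. A match describes letters in a window and is not a binding site.

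The scaffold subunits moved apart under the agents without passing 1.5-fold under either. PPP2R1A, the main scaffold, had intensities of 3506 in control, 4333 under cantharidin and 2919 under okadaic acid, which was 1.36-fold higher and 1.43-fold lower than control. PPP2R1B, the second scaffold isoform, had intensities of 295, 395 and 265 in the same order, which was 1.47-fold higher with cantharidin and 1.33-fold lower with okadaic acid. Directly compared, okadaic acid was below cantharidin by 1.95-fold for PPP2R1A and 1.96-fold for PPP2R1B. Without scaling neither direct difference passed 1.5-fold. Another probe of PPP2R1B stayed near background on all 3 arrays.

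The B55 subunits, which direct PP2A to substrates such as those phosphorylated by CDK1 in mitosis, differed among themselves. PPP2R2A (B55α), printed in 10 spots, had a mean intensity of 2342 in control, 3853 under cantharidin and 1636 under okadaic acid. Its spots ranged from 2199.6 to 2442 in control, from 3574 to 4133 under cantharidin and from 1501 to 1753 with okadaic acid, and the 3 ranges did not overlap. It was 1.81-fold higher with cantharidin and 1.71-fold lower with okadaic acid. PPP2R2C (B55γ) had intensities of 456, 409 and 198 for control, cantharidin and okadaic acid. It was 2.75-fold lower under okadaic acid and within 1.5-fold under cantharidin, where its direction changed with the processing. PPP2R2D (B55δ) was higher under both agents. Its intensity was 1098 in control, 2181 under cantharidin (2.19-fold higher) and 2590.0 under okadaic acid (1.98-fold higher). The okadaic acid decrease of PPP2R2A was 0.52 on the log2 scale without scaling, which is within 1.5-fold.

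**Figure D2:**
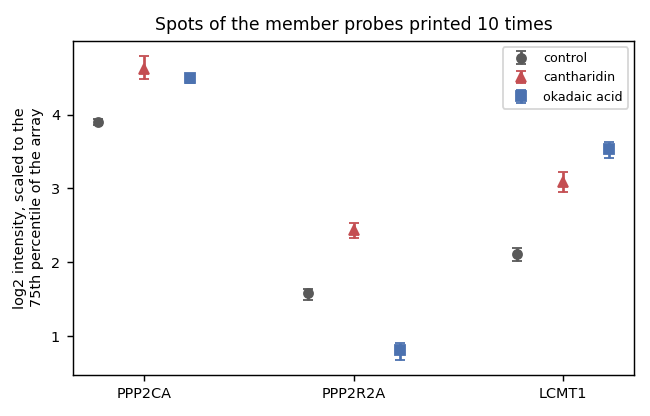
log2 intensity of the 3 member probes printed in 10 spots, scaled to the 75th percentile of each array, with the mean over spots (symbol) and the lowest and highest spot (bars) in control, cantharidin and okadaic acid cells. Spots of PPP2R2A and LCMT1 did not overlap between any 2 arrays, whereas those of PPP2CA overlapped between the agents. Bars cover spots of the same array and not separate cultures.

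Among the PR72 subunits, which bind calcium, PPP2R3B was lower under both agents. Its intensity was 354 in control, 143 under cantharidin (2.25-fold lower) and 167 under okadaic acid (2.53-fold lower). PPP2R3C had intensities of 1405, 1619 and 2815, which was 1.27-fold higher with cantharidin and 1.68-fold higher with okadaic acid, the latter past the threshold. PPP2R3A was within 1.5-fold under both agents.

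The B56 subunits held the member with the greatest increase. PPP2R5B (B56β) had an intensity of 1137 in control, 14245 under cantharidin and 8812 under okadaic acid. It was 13.8-fold higher with cantharidin and 6.49-fold higher with okadaic acid, the highest folds among the 41 members under each agent. The other probe of PPP2R5B gave 245, 1056 and 575, or 4.74-fold and 1.97-fold higher, so both probes were higher under both agents but differed in size. On both probes okadaic acid was below cantharidin, by 2.12-fold and 2.41-fold. The PPP2R5B window in the promoter table (GRCh38.p14, chr11:64924439-64924688, plus strand) holds a GC box on the opposite strand, in capitals. It is shown for its place as the member with the highest folds, and its start lies 7116 bases inside the outer boundary of the gene:
PPP2R5B promoter: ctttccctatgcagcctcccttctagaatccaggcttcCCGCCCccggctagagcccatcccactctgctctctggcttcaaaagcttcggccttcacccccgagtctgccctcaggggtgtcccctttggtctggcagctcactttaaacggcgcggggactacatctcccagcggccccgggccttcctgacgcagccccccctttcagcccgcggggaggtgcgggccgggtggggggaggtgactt

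The remaining B56 subunits each had a pattern of their own. PPP2R5A (B56α) had intensities of 452 in control, 757 under cantharidin and 512 under okadaic acid, which was 1.84-fold higher under cantharidin and within 1.5-fold under okadaic acid. PPP2R5E (B56ε) had intensities of 1046, 1192 and 3262, which was within 1.5-fold under cantharidin and 2.61-fold higher with okadaic acid. These subunits thus each passed the threshold under a different agent, and directly compared okadaic acid was 1.94-fold below cantharidin for PPP2R5A and 2.08-fold above it for PPP2R5E. PPP2R5D (B56δ) was lower under both, at 3036, 1576 (1.75-fold lower) and 2276 (1.59-fold lower). PPP2R5C (B56γ) stayed within 1.5-fold of control under both agents.

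Striatins place PP2A in the STRIPAK complex with kinases of the MST family. STRN was dim in control, with an intensity of 46.5, and reached 319.6 under cantharidin and 144 under okadaic acid. It was 7.56-fold and 2.60-fold higher, and in control the dimmest signal counted as well above background was 35.0. Its size depended on the background correction, with log2 differences of 1.59 and 0.59 after normexp correction and 3.57 and 1.58 in the deposited table, for cantharidin and okadaic acid. STRN4 had intensities of 5567, 5075 and 3886. It was level with control under cantharidin (1.003-fold) and 1.71-fold lower under okadaic acid.

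**Figure D3:**
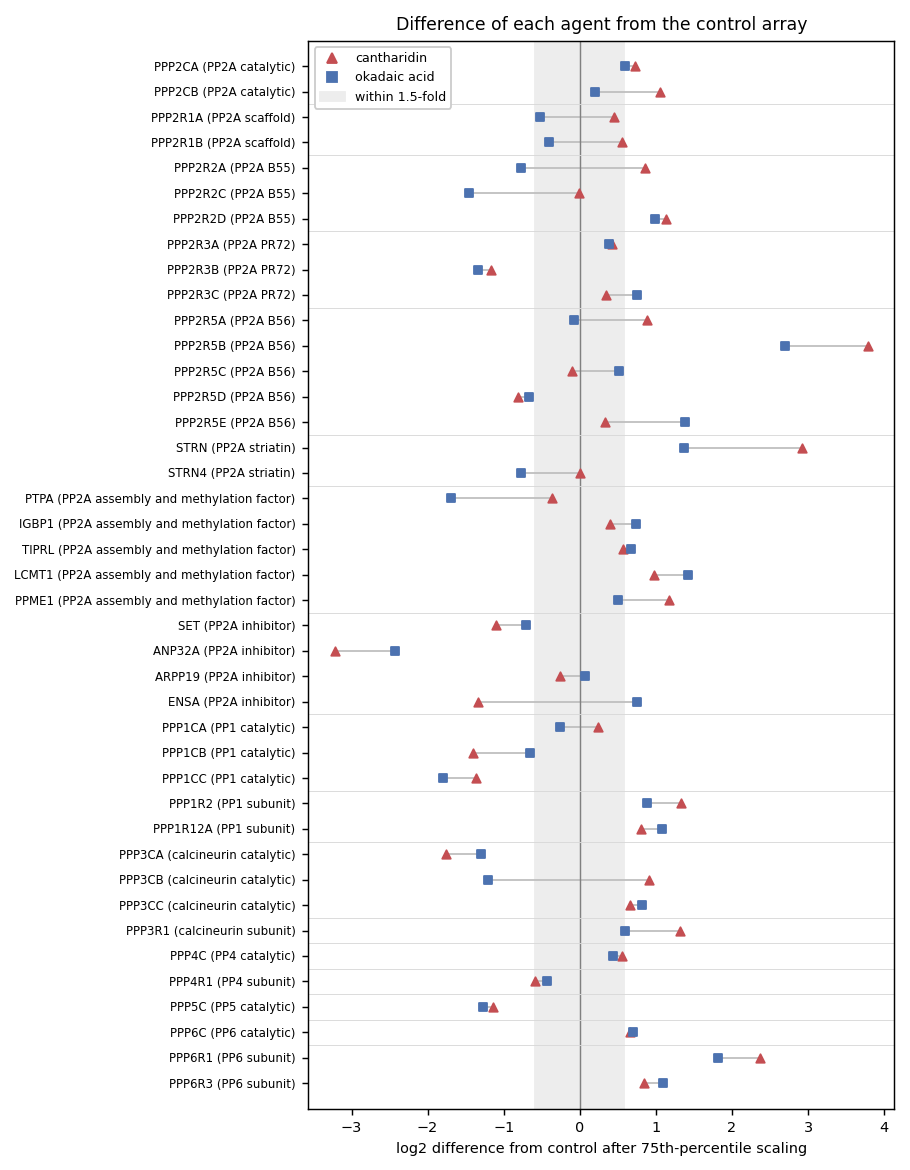
log2 difference from control of the brightest probe of the 41 members compared, under cantharidin (triangles) and okadaic acid (squares), grouped by enzyme and role, with the range within 1.5-fold shaded. PPP2R5B and STRN lie farthest to the right and ANP32A farthest to the left, and PPP2R2A, ENSA and PPP3CB lie outside the shading on opposite sides under the agents.

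Of 5 factors that bind, activate, methylate or demethylate PP2A, 2 were higher and none lower under cantharidin, beside 27.5% and 34.1% of all genes. These 2 were LCMT1 and PPME1, which act in opposite directions on the methyl group. Under okadaic acid 3 were higher and 1 lower, beside 28.1% and 28.8% of all genes. LCMT1, the methyltransferase of the catalytic subunit, had a mean over its spots of 3391 in control, 6039 under cantharidin and 10809 under okadaic acid, or 1.96-fold and 2.67-fold higher. Its spots ranged from 3185 to 3589.7 in control, from 5488 to 6644 under cantharidin and from 9950.3 to 11582 with okadaic acid, without overlap. PPME1, the esterase that removes the methyl group, had intensities of 558, 1144 and 947, which was 2.26-fold higher with cantharidin and 1.42-fold higher with okadaic acid, the latter within 1.5-fold. The other probe of PPME1 gave 230.1, 441 and 183, which was 2.11-fold higher with cantharidin and 1.498-fold lower with okadaic acid. The PPME1 probes thus matched under cantharidin and had opposite signs under okadaic acid.

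PTPA, an activator of PP2A that acts on the catalytic site, stood apart from the other factors. Its intensity was 4614 in control, 3245 under cantharidin and 1710.5 under okadaic acid, which was 1.29-fold and 3.22-fold lower. IGBP1 (α4), which holds free catalytic subunits, had intensities of 8013, 9569 and 15905, or 1.31-fold and 1.66-fold higher. The other probes of IGBP1 were 1.20-fold and 1.36-fold higher under okadaic acid, so only the brightest of the 3 probes passed the threshold there. TIPRL, which also binds catalytic subunits, had intensities of 9419, 12684 and 17996, or 1.48-fold and 1.60-fold higher. Its dimmer probe was 1.60-fold and 1.44-fold higher. The brighter TIPRL probe thus passed the threshold under okadaic acid and the dimmer probe under cantharidin.

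Of the 4 PP2A inhibitors among the members compared, 3 were lower and none higher under cantharidin on their brightest probes. Over all genes these shares were 34.1% and 27.5%. Under okadaic acid these inhibitors were mixed, with 2 lower and 1 higher, beside 28.8% and 28.1% of all genes. ENSA is counted as lower and then as higher, though its probes disagreed, as given below. Outside the members, PABIR1, an inhibitor of PP2A, was higher under both agents, and ANP32B, a relative of ANP32A, was lower under both. ANP32A, an acidic nuclear protein that inhibits PP2A, had the greatest decrease of the 41 members under both agents, on its brightest probe. Its intensity was 9830.3 in control, 959 under cantharidin and 2181 under okadaic acid, which was 9.31-fold and 5.38-fold lower. The other probe of ANP32A was also lower under both, at 276, 78.1 and 193, or 3.21-fold and 1.71-fold lower. The ANP32A promoter (GRCh38.p14, chr15:68820896-68821145, minus strand) is shown for that decrease and holds 2 GC boxes and 3 CCAAT boxes, all on the opposite strand, with a GC box directly followed by a CCAAT box:
ANP32A promoter: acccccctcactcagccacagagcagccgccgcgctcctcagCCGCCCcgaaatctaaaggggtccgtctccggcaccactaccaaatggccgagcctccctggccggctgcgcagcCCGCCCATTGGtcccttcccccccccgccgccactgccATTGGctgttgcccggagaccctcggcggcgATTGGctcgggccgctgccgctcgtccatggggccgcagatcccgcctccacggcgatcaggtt

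SET, a histone chaperone and inhibitor of PP2A, was lower under both agents as well. Its brightest probe had intensities of 29915 in control, 12713 under cantharidin and 21968 under okadaic acid, which was 2.14-fold and 1.63-fold lower. A further SET probe gave 6030.0, 2433 and 3315, or 2.25-fold and 2.17-fold lower. The dimmest SET probe gave 72.3 in control and 70.8 under cantharidin, within 1.5-fold of each other. Under okadaic acid this probe was not well above background, which makes it at least 1.49-fold lower. SET has processed gene copies with near-identical sequence, and their share in the signal was not tested.

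ENSA and ARPP19 inhibit PP2A bound to B55 after phosphorylation by the kinase MASTL. The brightest ENSA probe gave 1703 in control, 612 under cantharidin and 3416 under okadaic acid, which was 2.53-fold lower and 1.68-fold higher. Its other probe gave 1625, 1627 and 882, which was within 1.5-fold under cantharidin and 2.20-fold lower with okadaic acid. The ENSA probes therefore passed 1.5-fold in opposite directions under okadaic acid and gave no single direction for the gene. The brightest ARPP19 probe was within 1.5-fold under both agents, at 13358, 10101 and 16744. The dimmer ARPP19 probe was lower, at 1626, 937 (1.58-fold lower) and 958 (2.03-fold lower).

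For PP1, 2 of 3 catalytic genes were lower and both regulators higher under each agent, on their brightest probes. Over all genes 34.1% were lower and 27.5% higher under cantharidin, and 28.8% were lower and 28.1% higher under okadaic acid. PPP1CC (PP1γ) had intensities of 7944 in control, 2811 under cantharidin and 2723 under okadaic acid, or 2.57-fold and 3.48-fold lower. The other probe of PPP1CC was 2.30-fold and 2.45-fold lower. PPP1CB (PP1β) had intensities of 1339, 458 and 1016, or 2.66-fold and 1.57-fold lower. Its dimmer probe was lower by less than 1.5-fold under each agent, at 1.47-fold and 1.12-fold. PPP1CA (PP1α) was within 1.5-fold under both agents.

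PPP1R2 (inhibitor-2) binds and restrains the PP1 catalytic subunit. Its brightest probe had intensities of 1743 in control, 3989 under cantharidin and 3846 under okadaic acid, or 2.52-fold and 1.85-fold higher. A probe of similar behaviour gave 1473, 3047 and 3122, or 2.28-fold and 1.78-fold higher. The remaining PPP1R2 probe gave 2149.8, 902 and 1105, or 2.16-fold and 2.32-fold lower, the opposite direction under both agents. In control it was the brightest PPP1R2 probe. The call of PPP1R2 as higher thus rests on choosing the probe by its mean over all arrays, treated ones included. PPP1R12A, the myosin-targeting subunit of PP1, had intensities of 1011, 1604 and 2562, or 1.75-fold and 2.12-fold higher. Its dimmer probe was 1.52-fold higher under cantharidin and within 1.5-fold under okadaic acid.

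Calcineurin, the calcium-dependent phosphatase that activates NFAT, has a catalytic subunit encoded by 3 genes, and these had 3 different patterns. PPP3CA was lower under both agents, at 690.1 in control, 186 under cantharidin (3.37-fold lower) and 335 under okadaic acid (2.46-fold lower). PPP3CB had intensities of 1703, 2903 and 882, which was 1.88-fold higher with cantharidin and 2.30-fold lower with okadaic acid. PPP3CC was higher under both, at 1254, 1796 (1.58-fold higher) and 2628 (1.76-fold higher). PPP3R1, the regulatory subunit that binds calcium, was higher under both agents on each of its probes. Its brighter probe gave 199, 451 and 357, or 2.50-fold and 1.51-fold higher, and its dimmer probe was 2.77-fold and 3.77-fold higher.

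PP6 acts on Aurora A among other substrates. Its 3 genes among the members, which are not all its subunits, were higher under both agents on their brightest probes. PPP6R2, a PP6 subunit outside the members, was 4.52-fold higher under cantharidin and within 1.5-fold under okadaic acid. Of all genes compared, 17.3% were higher under both. PPP6R1, a regulatory subunit that was dim in control, had intensities of 61.6 in control, 288 under cantharidin and 258 under okadaic acid, or 5.15-fold and 3.51-fold higher. The PPP6R1 log2 differences were 1.45 and 0.95 after normexp correction and 2.90 and 2.14 in the deposited table, so their size depended on the processing. PPP6R3, another regulatory subunit, had intensities of 993, 1617 and 2532, or 1.79-fold and 2.14-fold higher. The catalytic gene PPP6C had intensities of 5324, 7638 and 10323 on its brightest probe, or 1.58-fold and 1.62-fold higher. The dimmer PPP6C probe gave 47.4 in control and 138 under okadaic acid (2.43-fold higher) and was not well above background under cantharidin, which makes it at least 1.97-fold lower there. The PPP6C probes thus disagreed under cantharidin and had the same sign under okadaic acid.

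PP5 and PP4 gave few genes. PPP5C, a phosphatase that works with the chaperone HSP90, was lower under both agents, at 208 in control, 85.6 under cantharidin (2.20-fold lower) and 103 under okadaic acid (2.41-fold lower). For cantharidin and okadaic acid, its log2 differences were -0.79 and -0.85 after normexp correction and -1.34 and -1.71 in the deposited table. PPP4R1, a regulatory subunit of PP4, had intensities of 288, 174 and 254, which was 1.502-fold lower under cantharidin, at the threshold, and 1.35-fold lower under okadaic acid. PPP4C, the catalytic gene, was within 1.5-fold under both. Over the catalytic genes of the 6 enzymes, 11 in number, 5 were higher (45.5%) and 4 lower (36.4%) under cantharidin, beside 27.5% and 34.1% of all genes. Under okadaic acid 3 were higher (27.3%) and 5 lower (45.5%), beside 28.1% and 28.8% of all genes.

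Several probes were available for some members, and they did not always give the same direction. In the 14 members with more than 1 probe that could be compared, all probes had the same sign in 10 members under cantharidin and in 9 under okadaic acid. The probes lay at least 1.5-fold apart in 7 of the 14 under cantharidin and in 9 under okadaic acid. The median gap between the highest and lowest probe of a member was 0.62 under cantharidin and 1.09 under okadaic acid on the log2 scale. Probes past 1.5-fold in opposite directions were found for PPP1R2 under both agents, for ENSA under okadaic acid and for PPP6C under cantharidin.

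**Figure D4:**
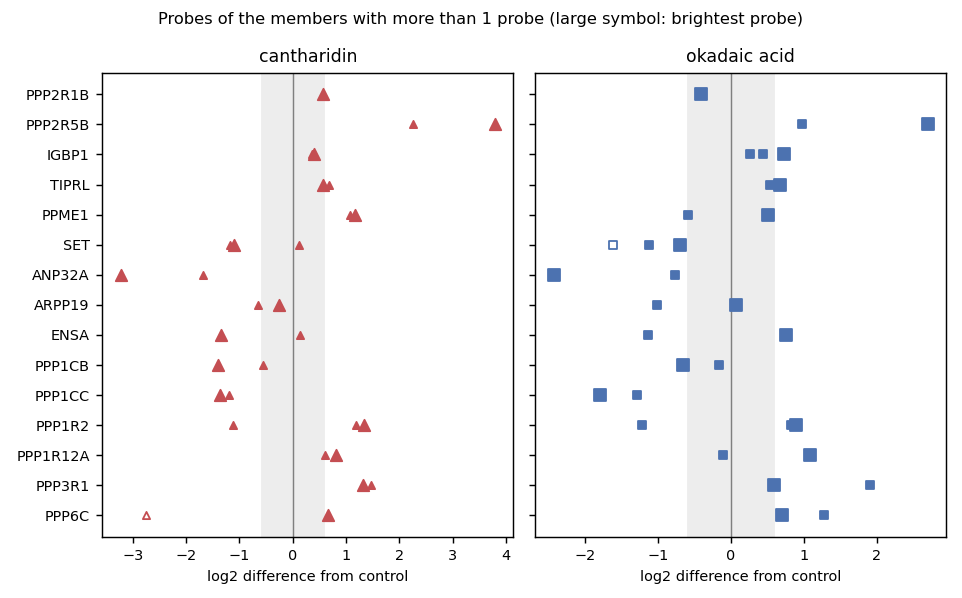
log2 difference from control of each probe of the members with more than 1 probe, under cantharidin (left) and okadaic acid (right), with a large symbol for the brightest probe, an open symbol where 1 of the arrays was not well above background, and the range within 1.5-fold shaded. Probes of PPP1CC, ANP32A and PPP2R5B lie on the same side of 0, whereas those of PPP1R2 lie on both sides under each agent. Probes not well above background on either array are not drawn.

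Compared directly, more members were lower than higher with okadaic acid relative to cantharidin, an order that turned round when the arrays were not scaled. At 1.5-fold, 13 of the 41 members were lower with okadaic acid, against 22.3% of all genes, and 5 were higher, against 29.5%. The median log2 difference of okadaic acid minus cantharidin was -0.13 for the members and 0.13 for all genes. Without scaling between arrays these were 0.27 and 0.52, with 13 members higher and 6 lower. The shares of all genes were not counted without scaling. Of the 26 PP2A members compared, 11 were lower (42.3%), beside the 22.3% of all genes, and 4 were higher (15.4%), and PP2A genes make up 26 of the 41 members. The lower ones were PPP2CB, PPP2R1A, PPP2R1B, PPP2R2A, PPP2R2C, PPP2R5A, PPP2R5B, STRN, STRN4, PTPA and PPME1. PPP3CB and PPP3R1 of calcineurin were the other lower members. The members higher with okadaic acid were PPP2R5C, PPP2R5E, ANP32A, ENSA and PPP1CB. The call was lost under at least 1 alternative for 10 of these 18 members, namely PPP2CB, PPP2R1A, PPP2R1B, PPP2R5A, PPP2R5C, STRN4, PPME1, ENSA, PPP1CB and PPP3R1. The gaps were greatest for PPP3CB, 4.32-fold lower with okadaic acid, for ENSA, 4.25-fold higher on its brightest probe, and for PPP2R2A, 3.09-fold lower.

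**Figure D5:**
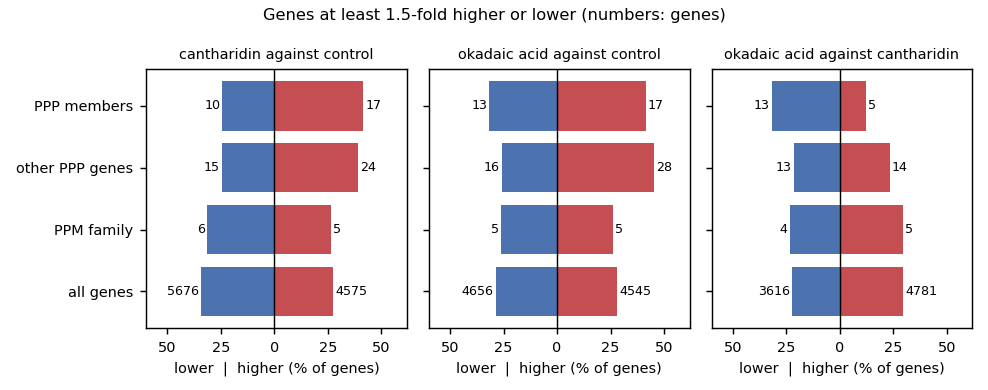
Percentage of genes at least 1.5-fold lower (left of 0) or higher (right of 0) in the 3 comparisons, with the number of genes beside each bar, for the 41 members, the other PPP family genes, the PPM family and all genes compared. In the direct comparison of the agents 13 members are lower and 5 higher, whereas over all genes 3616 are lower and 4781 higher. These are shares after scaling, without which 6 members were lower and 13 higher in that comparison. The shares of all genes without scaling were not counted.

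Other subunits and regulators of PPP phosphatases were set beside the members. Of 66 such genes with a probe, 61 were compared for cantharidin, of which 24 were higher (39.3%) and 15 lower (24.6%), and 62 for okadaic acid, of which 28 were higher (45.2%) and 16 lower (25.8%). Over all genes these shares were 27.5% and 34.1% for cantharidin and 28.1% and 28.8% for okadaic acid. Their median log2 difference was 0.32 and 0.37, respectively. The greatest increase over both agents was that of PPP1R10 (PNUTS), which targets PP1 in the nucleus, with intensities of 184 in control, 7888 under cantharidin and 15079 under okadaic acid (47.2-fold and 68.7-fold higher). PPP1R3F, which targets PP1 to glycogen, was dim in control (57.5) and was 16.4-fold and 3.37-fold higher. The alternatives to the processing were not run for the single genes of this list. PABIR1, an inhibitor of PP2A, was 6.07-fold and 6.89-fold higher. The greatest decreases were those of PPP1R14A, PPP1R9B and ANP32B. PPP1R14A (CPI-17), an inhibitor of PP1 in smooth muscle, was 5.90-fold and 2.89-fold lower. PPP1R9B (spinophilin), a PP1 scaffold, was 9.44-fold and 1.76-fold lower. ANP32B, a relative of ANP32A, was 2.93-fold and 4.59-fold lower. The metal-dependent PPM phosphatases have another fold and are not inhibited by okadaic acid. Of their 19 genes, 5 were higher (26.3%) and 6 lower (31.6%) under cantharidin, and 5 were higher and 5 lower under okadaic acid (26.3% each), which is near the shares of all genes. Their median log2 differences were -0.21 and -0.34. No test compared these lists with one another.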

How the data were processed

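RNA was measured on 3 arrays of a single colour, 1 per group, and groups were taken from the sample titles and characteristics. The authors deposited the scanner output of Feature Extraction 11.0.1.1, whose processed intensity is background-subtracted and detrended within each array but not scaled between arrays, with probe annotation on hg19 per the file headers. Per the headers the scan time was equal on the 3 arrays and the array barcodes differed, so no batch between arrays could be tested. The authors also deposited a table of log2 values, which was used as an alternative. Its normalization is not given in the sources used here, and its column medians lay between 7.74 and 7.75.

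Outlier spots were left out, log2 intensity was averaged over the spots of a probe, and the 75th percentile of each array was subtracted. No spot was saturated. Transcript accessions were matched without version to RefSeq genes of GRCh38.p14, giving names to 25705 of the 34041 probes with a value on all 3 arrays. The brightest probe by mean log2 intensity over the 3 arrays stood for its gene, and it entered a comparison if either array was well above background. If the other array was not, the fold is a lower bound, computed against the dim signal or the dimmest detected signal of that array, whichever was brighter. Promoter windows were the 250 bases before the start nearest the outer gene boundary, from RefSeq.

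The members, lists and rules were chosen with earlier results of these data known. Values are given for the catalytic and scaffold subunits of PP2A, for every member past 1.5-fold under either agent, and for members whose probes or agents passed 1.5-fold in opposite directions. The remaining members are named and counted. Among other PPP genes, the 3 with the greatest rise and the 3 with the greatest fall over the mean of both agents are named. PPP6R2 of that list is also named, beside the PP6 members. PPP2R2B, PPP1R3E and PPP4R3A of that list had no named probe and were not analysed here. Alternatives were the normexp background correction (offset of 50, on median spot and background signals), 4 other scalings including none, 3 treatments of dim probes, the deposited table, a 2-fold threshold and 2 other ways to choose the probe. Counting was tested on simulated data. Software was R 4.3.3 (limma 3.58.1) and Python 3.11.15 (numpy 2.4.6; pandas 2.3.3; matplotlib 3.10.9). Precision is limited by the number of arrays.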

Additional observations from a re-analysis of the deposited data

Results flagged for a closer look

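For 3 members the agents passed 1.5-fold in opposite directions relative to control. PPP2R2A was higher under cantharidin and lower under okadaic acid, with a log2 difference of okadaic acid minus cantharidin of -1.63. PPP3CB showed the same order, with a log2 difference of -2.11. ENSA had the opposite order on its brightest probe, with a log2 difference of 2.09, while its other probe gave -1.28. With 1 array per group these differences between the agents were not tested.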

How the results depend on the processing

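Of the 12 alternatives, 10 gave a difference for a single member, with 1230 such values. Of these, 1087 stayed within the spread between spots of the reported value, 141 moved further and 2 changed the sign of a called value. The brightest probe of all 41 members compared was well above background on every array. The 3 treatments of dim probes therefore could not alter these values. Nor could the median over probes where a member had 1 probe compared. The 1087 and the counts of calls held, given below, include these fixed values. With the median over probes, PPP6C under cantharidin was -1.05 and ENSA under okadaic acid -0.19 on the log2 scale, and the okadaic acid median of the members was -0.037. Without scaling, 8 members were lower under okadaic acid with a median of 0.64, and against cantharidin 13 members were higher and 6 lower with okadaic acid, with a median of 0.27. All genes shifted too, to medians of -0.30 for cantharidin, 0.26 for okadaic acid and 0.52 between the agents. At 2-fold, 8 members were higher and 8 lower under cantharidin, so higher members did not outnumber lower ones there. Under okadaic acid 7 were higher and 8 lower at 2-fold, and between the agents 2 were higher and 6 lower. At this threshold 0 passed in opposite directions. The shares of all genes at 2-fold were not counted, so the members could not be set against all genes there. Counted probe by probe, 16 probes were lower under cantharidin and 20 under okadaic acid. The okadaic acid median of these probes was 0.14, beside -0.02 for all named probes. Shares of all genes were counted for the main processing only. Calls at 1.5-fold held under every alternative that gave a single difference for 23 of 27 members under cantharidin, 18 of 30 under okadaic acid and 8 of 18 between the agents. The calls lost somewhere under cantharidin were PPP2CA, PPP3CC, PPP4R1 and PPP6C, and those under okadaic acid were PPP2CA, PPP2R2A, PPP2R5D, STRN4, IGBP1, TIPRL, SET, ENSA, PPP1CB, PPP1R12A, PPP3R1 and PPP6C. Beyond the alternatives' own construction the causes were not tested. No paired analysis was possible because each group has 1 array, and no replicate could be left out. Dim probes limit STRN3 and CIP2A, which have no value here.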
